A study of Mus musculus with 4 samples.

Results

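The diabetes by surgery interaction was followed here in genes that the array measures more than once. The interaction is the log2 difference of differences, which takes the uninephrectomy minus sham difference of diabetic mice and subtracts that of nondiabetic mice. It was read on every probe set with 1 gene symbol and a mean deposited signal of at least 100 over the 4 arrays, and a gene was a member when at least 2 of its probe sets met this limit. The members were 5123 genes with 13691 probe sets, of 18193 genes with 34945 probe sets of 1 symbol on the array. At the signal limit stood 20099 probe sets of 11531 genes, of which 6408 genes had only 1 such probe set and were not members. The rule uses the level of signal and the number of probe sets and does not select on the interaction. The limit is on the mean, however, so a dim probe set can reach it through 1 array alone. Both probe sets of Col1a1, for example, were below 100 in every array except diabetic uninephrectomy, at 502 and 220.1. Both probe sets of Mcm6 and of Ankrd1 also met the limit only through this array. So did the brighter probe set of Socs3 and the dimmest ones of Havcr1 and Vcam1. For such genes membership and the sign of the interaction are not independent.

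The series asks how uninephrectomy, the removal of 1 kidney, alters renal gene expression in diabetic OVE26 mice. Kidney RNA of female mice was measured on Affymetrix 3′ expression arrays in 4 groups, with 1 array for each. The nondiabetic groups were FVB/NJ control mice with a sham operation or with uninephrectomy, and the diabetic groups were OVE26 mice on the FVB background with a sham operation or with uninephrectomy. Surgery was done at 2 months of age, and kidneys were taken at 4.5 months, which was 10 weeks later, after perfusion with buffered saline. RNA of 4 mice was pooled in each group, so no value shows the spread between mice, and with 1 array per group no difference has a replicate check or a p-value. The transgene of OVE26 mice acts in the beta cells of the pancreas and not in the kidney, and both diabetic groups carry it while the control littermates do not. The words positive and negative below describe the sign of the interaction on these arrays.

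A 3′ expression array reports a transcript through probe sets, each a group of short probes that matches a stretch of the transcript near its 3′ end. Several probe sets for a gene may read the same message, different 3′ ends or splice forms, or, in probe sets whose identifier ends in _s_at or _x_at, also transcripts of other genes. After loss of a kidney the remaining kidney grows and filters more, and in the diabetic kidney, which already filters under high glucose, tubular injury, inflammation and matrix deposition are the known course of nephropathy. Probe sets of a gene share the same RNA pools and the same arrays, so their agreement describes the measurement and is no replication of a condition.

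Among the 15 genes with the largest agreeing positive interaction were Socs3, Lyz1, Havcr1, Tnfrsf12a, Ankrd1, Vcam1, the collagen genes Col1a1, Col1a2 and Col3a1, and the replication genes Mcm3 and Mcm6. The signals of these 15 were highest in the diabetic uninephrectomy array on every probe set except the dimmer one of Frzb. Ranking by a positive interaction itself favours genes that are high in this array. Among the 15 ranked the same way on the negative side were Cyp24a1, which encodes the enzyme that degrades vitamin D, Bbox1 of carnitine synthesis and Slc22a8, a transporter of organic anions in the proximal tubule. In 52.3% of the member genes, however, the probe sets did not share a sign.

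Signals on the arrays had been scaled to a common trimmed mean of 500.003 before deposit, and their medians were 106.8 after sham surgery and 119.3 after uninephrectomy in nondiabetic mice, and 115.3 and 107.7 in diabetic mice. The 20th percentiles in the same order were 23.7, 30.1, 29.8 and 23.3, so the dim end of the arrays was lower in nondiabetic sham and diabetic uninephrectomy than in the other two groups. The 18 probe sets for hybridisation spike-ins, which are added in fixed amounts, all had a negative interaction, between -0.93 and -0.52, and the 3 probe sets for 18S ribosomal RNA all had a positive one, between 0.15 and 0.71. The part of these shifts in the interactions below was not tested. Kidney was checked by its own markers: all 35 proximal tubule genes on the array, 20 of 21 of the loop of Henle and distal tubule and 16 of 17 podocyte genes reached the signal limit. Markers of lymphocytes reached it in only 4 of 14 genes.

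All probe sets were positive in 1245 of 5123 genes, which is 24.3% of the members, and all were negative in 1201 genes, which is 23.4%. The remaining 2677 genes, 52.3%, had probe sets of both signs. This balance depends on how the arrays are set against each other: with every array centred on the median of all its probe sets the shares became 45.1% positive and 9.55% negative, and centred on the median of the members 18.5% and 31.0%. The median interaction over all probe sets on the array was -0.09, and these settings shifted it to 0.12 and -0.17. Over the members' probe sets the median was 0.01 and the SD 0.51.

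Agreement was more frequent where fewer probe sets had to agree. Signs set at random would also agree less often in genes with more probe sets, so this fall is no separate result. The 52.3% of genes with both signs depends on the number of probe sets in the same way. All probe sets shared a sign in 58.6% of the 3031 genes with 2 probe sets, in 38.9% of the 1254 genes with 3, in 25.5% of the 494 genes with 4 and in 16.6% of the 344 genes with at least 5. It was also more frequent in brighter probe sets. Among genes with 2 probe sets, 54.2% agreed where the dimmer had a mean signal of 100 to 200, and 67.1% where it had 2000 or more. In this brightest class 50 genes were positive and 109 negative, whereas the counts were 95 and 67 at 1000 to 2000 and 157 and 102 at 500 to 1000.

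A 2-fold interaction, a value of at least 1 on the log2 scale, means that the uninephrectomy to sham ratio was at least 2 times as large in one genotype as in the other, apart from the offset added to dim signals. Of all 20099 probe sets at the signal limit 3.13% were 2-fold positive and 3.29% 2-fold negative. The members had 676 genes, or 13.2%, with at least 1 such probe set. Every probe set was 2-fold positive in 22 genes, which is 0.429% of the members, and 2-fold negative in 10 genes, which is 0.195%. At a limit of 1.5-fold these counts were 100 and 65 genes. Beside the 15 positive genes named by rank below, the 22 held Ccdc74a, Fst, Fstl1, Glipr1, Pkia, Rfc4 and Sema3c, which are named here only because they complete the count.

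A large value on a gene's brightest probe set was often smaller on the next. Where the brightest probe set was 2-fold positive (93 genes), the second had the same sign in 72 genes, 77.4%, and was also 2-fold in 27, with a median of 1.30 on the brightest and 0.63 on the second. Where it was 2-fold negative (70 genes), the second had the same sign in 46, 65.7%, and was 2-fold in 14, with medians of -1.18 and -0.31. Across the 5123 genes Pearson's r between the interactions of the brightest and the second probe set was 0.28 and Spearman's rho 0.28. Genes are not independent replicates, and both values of a gene come from the same 4 arrays. The same r was 0.48 for diabetes against no diabetes summed over both surgeries and 0.30 for uninephrectomy against sham summed over both genotypes. Of the single differences it was 0.39 for uninephrectomy in diabetic mice and 0.17 for uninephrectomy in nondiabetic mice.

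**Figure D1:**
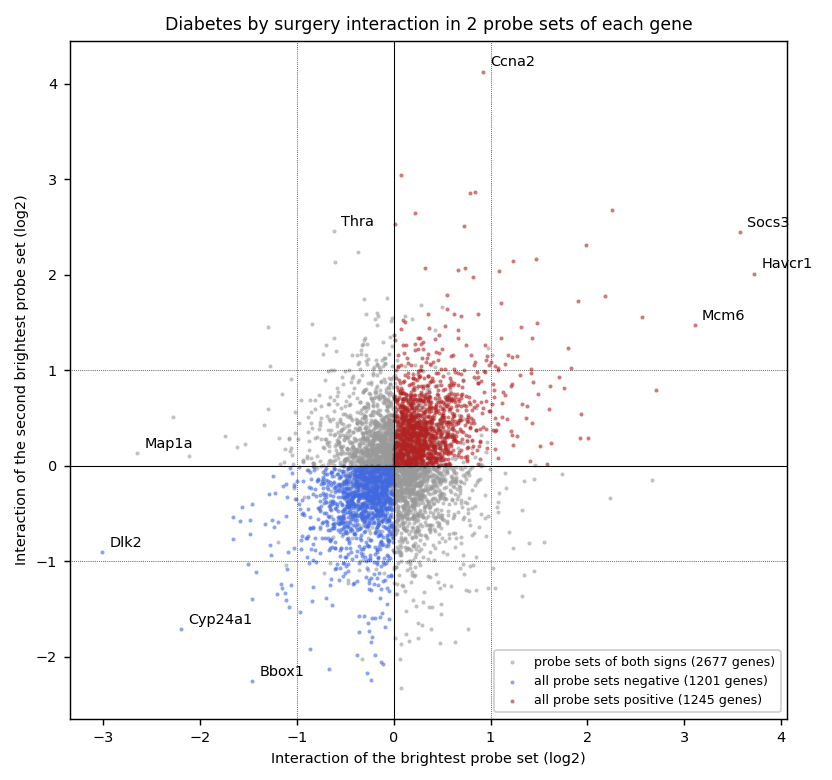
Each point is 1 of the 5123 member genes, with the log2 interaction of its brightest probe set on the x axis and of its second brightest on the y axis, coloured by whether all of its probe sets share a sign; dotted lines mark 2-fold. Most points lie in a cloud around 0 (r = 0.28), and Socs3, Havcr1 and Mcm6 stand far out at the upper right and Dlk2, Cyp24a1 and Bbox1 at the lower left.

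Socs3 led the positive genes. It encodes an inhibitor that cells make in response to cytokines and that shuts off JAK and STAT signalling. Signals are given in a fixed order, first for sham and uninephrectomised nondiabetic mice and then for sham and uninephrectomised diabetic mice. On its brighter probe set they were 109.7, 102, 49.5 and 827. Those of the dimmer one were 112, 135, 78.9 and 642. On both, the diabetic uninephrectomy array stood far above the other 3, and diabetic sham was the lowest. The interaction was 3.58 and 2.44, the largest agreeing pair among the members when ranked by the probe set nearer 0. Both probe sets are of the _x_at kind, which may also read transcripts of other genes, so their agreement may not be that of Socs3 alone.

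Cxcl1, which encodes a chemokine that attracts neutrophils, had 3 probe sets, each highest in the diabetic uninephrectomy array. The signals, in the same order of groups, were 209, 542, 189.8 and 1789 on the first probe set. They were 430.5, 566, 256 and 833 on the second and 234, 426, 144 and 962 on the third. On each of them uninephrectomy was also above sham in nondiabetic mice, so the interaction, 1.80, 1.23 and 1.73, is a difference between unequal steps of the same direction. The list of cytokine and chemokine genes had 7 members, of which 4 were positive on all probe sets, 1 was negative and 2 were of both signs. Its median of 0.31 turned to -0.24 when _s_at and _x_at probe sets were left out. Over all members the median gene had an interaction of 0.00, here and for the lists that follow.

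RefSeq promoter windows, 250 bases before to 50 after the annotated start, were matched for 13 of the 15 positive genes named by rank (15 windows) and 13 of the 15 negative ones (19 windows). The window of Socs3 is shown because it holds the STAT motif TTCNNNGAA, the letters that STAT factors are known to bind, at the position in capitals. It lies at chr11:117969317-117969616 on the minus strand of GRCm38.p6 and is written 5′ to 3′ in the direction of transcription.
Socs3: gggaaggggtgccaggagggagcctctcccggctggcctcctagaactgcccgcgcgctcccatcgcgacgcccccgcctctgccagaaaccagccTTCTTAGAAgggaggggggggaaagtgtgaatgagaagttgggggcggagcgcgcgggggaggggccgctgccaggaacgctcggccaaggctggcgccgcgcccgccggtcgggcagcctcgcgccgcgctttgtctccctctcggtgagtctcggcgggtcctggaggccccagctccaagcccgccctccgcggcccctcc
The motif, searched on both strands, was in 2 of the 13 positive genes, Socs3 and Frzb, in 0 of the 13 negative ones and in 8.30% of all 32851 promoter windows. A match describes letters in this window and is neither a proven site nor a cause.

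Markers of injured tubules formed the list with the highest median, 0.90, positive under each scaling tried. Of its 13 members 10 were positive on all probe sets, 0 were negative and 3 had both signs. Havcr1 encodes kidney injury molecule 1, a receptor on the luminal face of damaged proximal tubule cells. Its brighter probe set had signals of 221, 98.8, 359 and 2552 in this order of groups, and its dimmer one 25.6, 9.3, 125 and 392. Both were lowest in nondiabetic uninephrectomy and highest in diabetic uninephrectomy, and the interaction was 3.72 and 2.01. The dimmer probe set lay below the offset added to dim signals in both nondiabetic arrays.

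Tnfrsf12a, the receptor of the cytokine TWEAK, had signals of 133, 61.3, 578 and 1294 on one probe set and 213, 132, 375 and 1286 on the other. Here too nondiabetic uninephrectomy was the lowest array, and both diabetic arrays lay above both nondiabetic ones. Its interaction was 1.99 and 2.31. Vcam1 encodes an adhesion molecule to which leukocytes bind. Its 3 probe sets read 507, 438, 375 and 2041, then 255, 253, 158 and 512, then 138, 77.0, 74.5 and 452, and the diabetic uninephrectomy array alone stood apart on each of them. The interaction of Vcam1 was 2.56, 1.56 and 2.91.

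Other injury genes that were positive on all probe sets were Cp, which encodes ceruloplasmin (mean interaction 1.47 over 7 probe sets), Cd44, a receptor of hyaluronan (1.04 over 2), Itgb6, an integrin subunit (0.90 over 2), Vim, the intermediate filament of mesenchymal cells (0.85 over 3), and Krt8, a keratin of epithelial cells (0.71 over 3). The mean of 1.85 of Anxa2, an annexin, was made of 0.84 on a bright probe set and 2.86 on a dim one of the _x_at kind, whose signal in nondiabetic uninephrectomy lay below the offset of 26.4. The smallest agreeing mean in this list was that of Clu, clusterin, at 0.44 over 4 probe sets. Cdkn1a, S100a10 and Tpm1 had probe sets of both signs.

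Ankrd1, an ankyrin repeat gene known to respond to mechanical stress, had signals of 66.7, 43.9, 99.4 and 404 on its brighter probe set and 56.1, 45.5, 111 and 385 on the dimmer one. On both, nondiabetic uninephrectomy was the lowest array and diabetic uninephrectomy the highest. The interaction was 2.18 and 1.78. Gulp1, an adaptor for the uptake of dying cells, had an interaction of 1.43 and 1.33, and Litaf, which encodes a protein of late endosomes, 1.18 and 1.16. For Litaf, signals of 1442, 945, 1519 and 2296 on the brighter probe set and 572, 376, 486 and 743 on the dimmer one show that the nondiabetic step was downward and the diabetic step upward, each on both probe sets. Frzb, a secreted inhibitor of Wnt signalling, read 774, 532, 532 and 940.5 on its brighter probe set and 232, 90.7, 148 and 190.0 on the dimmer one. Its interaction of 1.31 and 1.45 rested on different arrays: the brighter probe set was highest in diabetic uninephrectomy and the dimmer one in nondiabetic sham.

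Col1a1, Col1a2 and Col3a1, which encode the main fibres of scar matrix, were positive on both probe sets of each gene. Col5a1 and Col5a2, chains of another fibrillar collagen, had probe sets of both signs, with means of -0.16 and 0.83. Col1a1 read 72.4, 97.3, 86.8 and 502 on its brighter probe set and 81.1, 70.7, 56.3 and 220.1 on the dimmer one, with an interaction of 1.90 and 1.72. Its partner chain Col1a2 read 1833, 1649.5, 2700.1 and 5751 on the brighter probe set and 244, 199, 329 and 1289 on the dimmer one, with interactions of 1.23 and 2.15. Both chains were highest in diabetic uninephrectomy on each probe set, and Col1a2 was also higher in diabetic sham than in either nondiabetic group. Col3a1 had signals of 1122, 1229.7, 2150.2 and 6609.8 on the brighter probe set and 106, 102, 186 and 557 on the dimmer one. Its probe sets gave nearly the same interaction, 1.48 and 1.498.

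Of the 24 extracellular matrix members 13 were positive on all probe sets, 1 was negative and 10 had both signs, with a median of 0.36 that stayed positive under each setting tried. Lox, which encodes the enzyme that crosslinks collagen, had a mean of 1.22 and Bgn, the proteoglycan biglycan, 0.59. Of the basement membrane collagens Col18a1 was positive on both probe sets with a mean of 0.40, Col4a4 was negative on 3 with a mean of -0.29, and Col4a1 and Col4a3 had probe sets of both signs with means of 0.33 and 0.19. Smooth muscle and pericyte markers, whose summed signal over 16 genes was 15379, 15724, 18857 and 24538 in the 4 groups, were highest in the same array as the collagens, and their part in the collagen values was not tested. In whole kidney RNA, more cells of a type and more RNA per cell cannot be told apart.

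The 5 members that encode the helicase of DNA replication, Mcm2, Mcm3, Mcm4, Mcm6 and Mcm7, were positive on all probe sets. Mcm6, the most positive of them, read 61.0, 12.9, 114 and 518 on its brighter probe set and 48.4, 68.3, 98.3 and 412 on the dimmer one. The brighter probe set was at 12.9 in nondiabetic uninephrectomy, below the 20th percentile of that array, while the other was not, and the interaction was 3.11 and 1.47. Mcm3, of the same ring-shaped complex, read 129, 77.2, 175 and 298 on its brighter probe set and 153, 79.7, 138 and 189 on the dimmer one, with an interaction of 1.27 and 1.15. Nondiabetic uninephrectomy was the lowest array on both Mcm3 probe sets, which are of the _s_at and the _x_at kind.

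Ccna2, cyclin A2, had a large value on a probe set that was dim in 1 array: it read 156, 163, 220.5 and 459 on the brighter probe set and 131, 4.1, 66.5 and 288 on the dimmer one, and the signal of 4.1 in nondiabetic uninephrectomy went with an interaction of 4.13 against 0.92 on the brighter probe set. Of the 19 cell cycle members 14 were positive on all probe sets, 0 were negative and 5 had both signs, with a median of 0.48 that stayed positive under each setting. Rrm1 and Rrm2, the subunits of ribonucleotide reductase, both had a mean of 0.96, and Hmgb2, a chromatin protein of dividing cells, 1.003.

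The promoter windows of both Mcm genes are shown because these genes were positive together and the windows hold several CCAAT boxes, in capitals as CCAAT or, on the other strand, ATTGG. The window of Mcm6 is chr1:128359656-128359955 and that of Mcm3 chr1:20820263-20820562, both on the minus strand of GRCm38.p6 in RefSeq and written 5′ to 3′.
Mcm6: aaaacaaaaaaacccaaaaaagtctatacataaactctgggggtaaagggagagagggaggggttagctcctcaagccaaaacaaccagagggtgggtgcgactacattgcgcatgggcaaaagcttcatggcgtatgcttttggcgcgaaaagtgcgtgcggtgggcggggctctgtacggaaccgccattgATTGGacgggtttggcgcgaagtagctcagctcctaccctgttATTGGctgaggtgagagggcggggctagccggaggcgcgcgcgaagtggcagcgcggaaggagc
Mcm3: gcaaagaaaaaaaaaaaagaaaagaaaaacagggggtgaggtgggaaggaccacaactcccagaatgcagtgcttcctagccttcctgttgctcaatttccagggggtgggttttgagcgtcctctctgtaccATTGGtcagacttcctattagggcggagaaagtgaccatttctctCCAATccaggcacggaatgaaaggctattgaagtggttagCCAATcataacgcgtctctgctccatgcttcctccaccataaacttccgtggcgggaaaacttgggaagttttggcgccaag
The letters CCAAT, searched on both strands, were in 5 of the 13 positive genes, in 5 of the 13 negative genes and in 37.4% of all 32851 windows.

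Lyz1 followed Socs3 in rank, with signals of 1391, 1348, 2263 and 10547 on its brighter probe set and 449, 501, 725 and 5321 on the dimmer one and an interaction of 2.25 and 2.68. Both probe sets are of the _x_at kind, and lysozyme has the closely related gene Lyz2, which is expressed in macrophages, so the signals of these genes cannot be separated here. The summed signal of 25 macrophage and myeloid markers, of which 24 reached the limit, was 14021, 13202, 13101 and 24761 in the 4 groups. It was highest in the same array as Lyz1, Cxcl1 and Vcam1. Lyz2 is itself among these markers, so the sum and the Lyz1 signals may hold the same transcript. The part of these cells in those genes was not tested. Of the macrophage markers 5 were members, and 4 of these were positive on all probe sets, with C1qb, a complement subunit made by macrophages, at a mean of 0.88 and Coro1a, an actin regulator of leukocytes, at 0.62. Csf1r, also positive, had a mean of only 0.13, and its mean diabetic step was -0.09. Class II antigen presentation genes H2-Aa and H2-Ab1 were positive on each of their 3 probe sets, with means of 0.96 and 0.95. They belong to a list of 7 interferon and antigen presentation members with a median of 0.16, of which 4 were positive on all probe sets, 1 was negative and 2 had both signs. Irf8, a transcription factor of myeloid cells, was the negative one at -0.37, and the class I genes H2-K1 and H2-D1 were those of both signs.

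**Figure D2:**
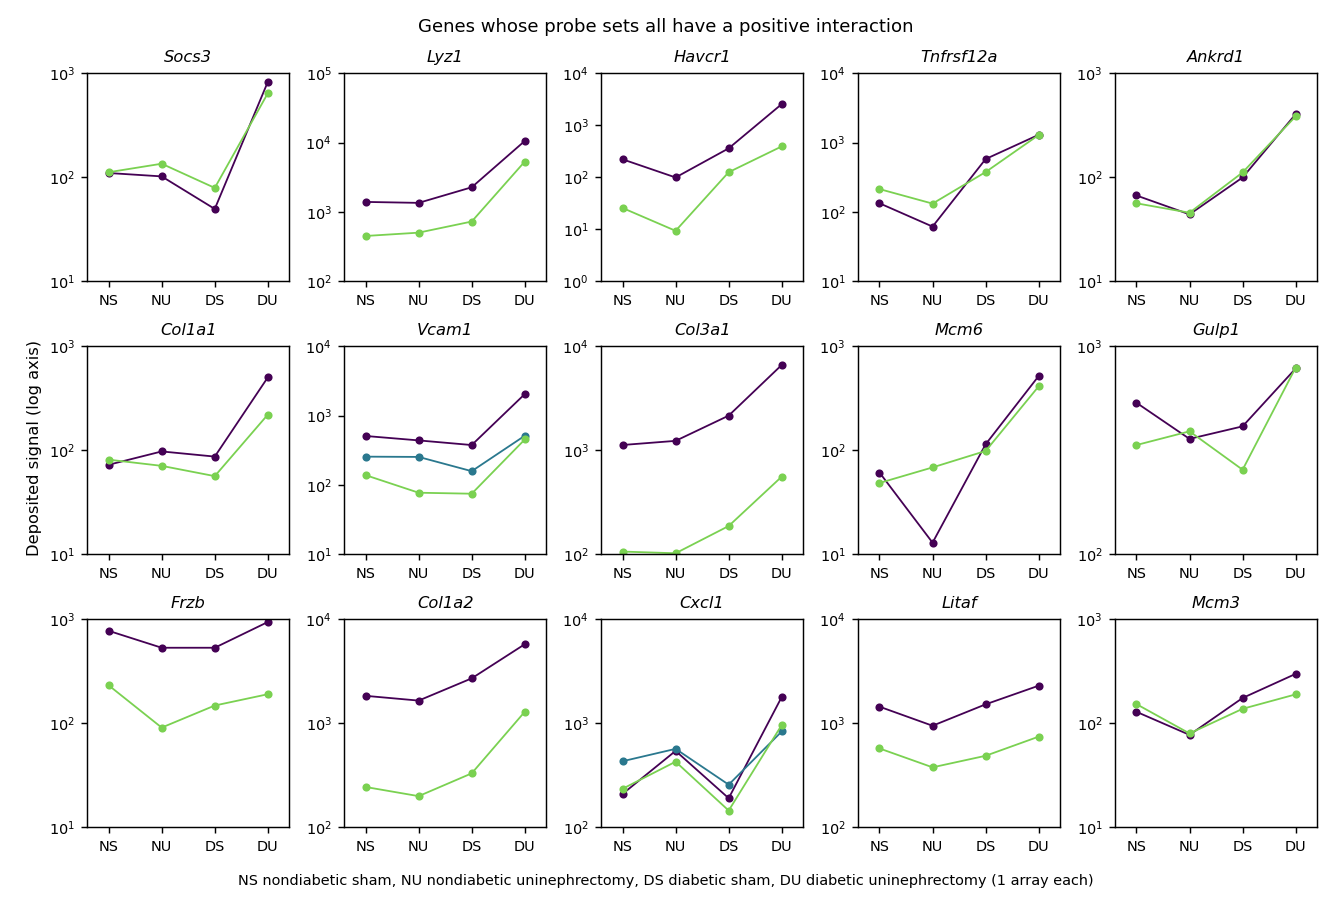
Deposited signal on a log axis in nondiabetic sham (NS), nondiabetic uninephrectomy (NU), diabetic sham (DS) and diabetic uninephrectomy (DU) mice, 1 array each, for the 15 genes with the largest agreeing positive interaction; each line is a probe set, darker lines being brighter probe sets, and each panel has its own axis. The diabetic uninephrectomy point is the highest of every line except the dimmer one of Frzb, which is highest in nondiabetic sham.

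The negative genes had smaller interactions and were spread over several functions. Cyp24a1, the 24-hydroxylase that breaks down active vitamin D in the tubule, had signals of 1047, 3819.5, 2582 and 2004 in the 4 groups on its bright probe set and 87.5, 169.5, 128 and 54.8 on the dim one. On both, nondiabetic uninephrectomy was the highest array, and uninephrectomy was above sham in nondiabetic and below sham in diabetic mice. The interaction was -2.20 and -1.71, the largest agreeing negative pair by the probe set nearer 0.

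Bbox1 encodes the last enzyme of carnitine synthesis, and carnitine carries fatty acids into mitochondria. It read 195, 299.8, 588 and 302 on its brighter probe set and 84.0, 136, 238 and 54.8 on the dimmer one, highest in diabetic sham on both probe sets, with an interaction of -1.46 and -2.26. Slc27a1, a fatty acid transport protein, read 283, 350.0, 477 and 289 on the brighter probe set and 253, 372, 362 and 275 on the dimmer one, with interactions of -0.96 and -0.88. The brighter Slc27a1 probe set was highest in diabetic sham and the dimmer one in nondiabetic uninephrectomy. Retsat, retinol saturase, read 4343, 4972, 5673 and 3490.0 on its brighter probe set and 1556, 2181, 2583 and 1849 on the dimmer one, both highest in diabetic sham, with interactions of -0.89 and -0.96.

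Slc22a8 encodes the organic anion transporter OAT3 of the proximal tubule. Its signals were 6579, 7744, 5857 and 3172 on the brighter probe set and 1971, 2464, 1573 and 723 on the dimmer one, and on both probe sets diabetic uninephrectomy was the lowest array and nondiabetic uninephrectomy the highest. With an interaction of -1.11 and -1.41 it was the only one of the 10 genes 2-fold negative on all probe sets that was also a member at a signal limit of 200. Slc16a14, an orphan member of the monocarboxylate transporter family, read 1726, 2776, 2166 and 1767 on the brighter probe set and 799, 1292, 1361 and 741 on the dimmer one. Its interaction was -0.97 and -1.53, with uninephrectomy above sham in nondiabetic mice and below sham in diabetic mice on both probe sets.

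Several negative genes were lowest in the nondiabetic sham array and not in diabetic uninephrectomy. Cgas, the sensor of DNA in the cytosol, read 68.0, 160.3, 144 and 125 on its brighter probe set and 31.0, 122, 120.3 and 130.3 on the dimmer one, so nondiabetic sham alone stood apart, with an interaction of -1.16 and -1.28. Chpf2, an enzyme that lengthens chondroitin chains, read 129, 254, 271 and 206 on the brighter probe set and 77.5, 150.4, 209 and 131 on the dimmer one, with interactions of -1.20 and -1.35. Dlk2, a relative of the adipogenesis regulator Dlk1, read 6.5, 189, 168 and 132 on its brighter probe set and 86.7, 141, 148 and 111 on the dimmer one. The first Dlk2 probe set gave -3.01, which rests on a signal of 6.5 in nondiabetic sham, and the second, an _x_at probe set, -0.91.

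Others were lowest in diabetic uninephrectomy. Msh3, a mismatch repair gene, read 461, 583, 654 and 353 on its brighter probe set and 87.2, 137, 135 and 71.8 on the dimmer one, with interactions of -1.16 and -1.24. Syt7, a calcium sensor of vesicle fusion, read 153, 266, 206 and 111 on the brighter probe set and 137, 215, 59.1 and 21.6 on the dimmer one, with interactions of -1.46 and -1.40. Its dimmer probe set was low in both diabetic arrays, which its brighter one was not. For Zc2hc1c, lowest in the same array, the interaction was -1.51 and -1.03. In the remaining genes the probe sets did not share a lowest array. F5, coagulation factor V, gave -1.42 and -1.12, Hectd3, a ubiquitin ligase, -1.08 and -1.48, and Rhbdd3, a rhomboid family gene, -1.09 and -0.90.

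**Figure D3:**
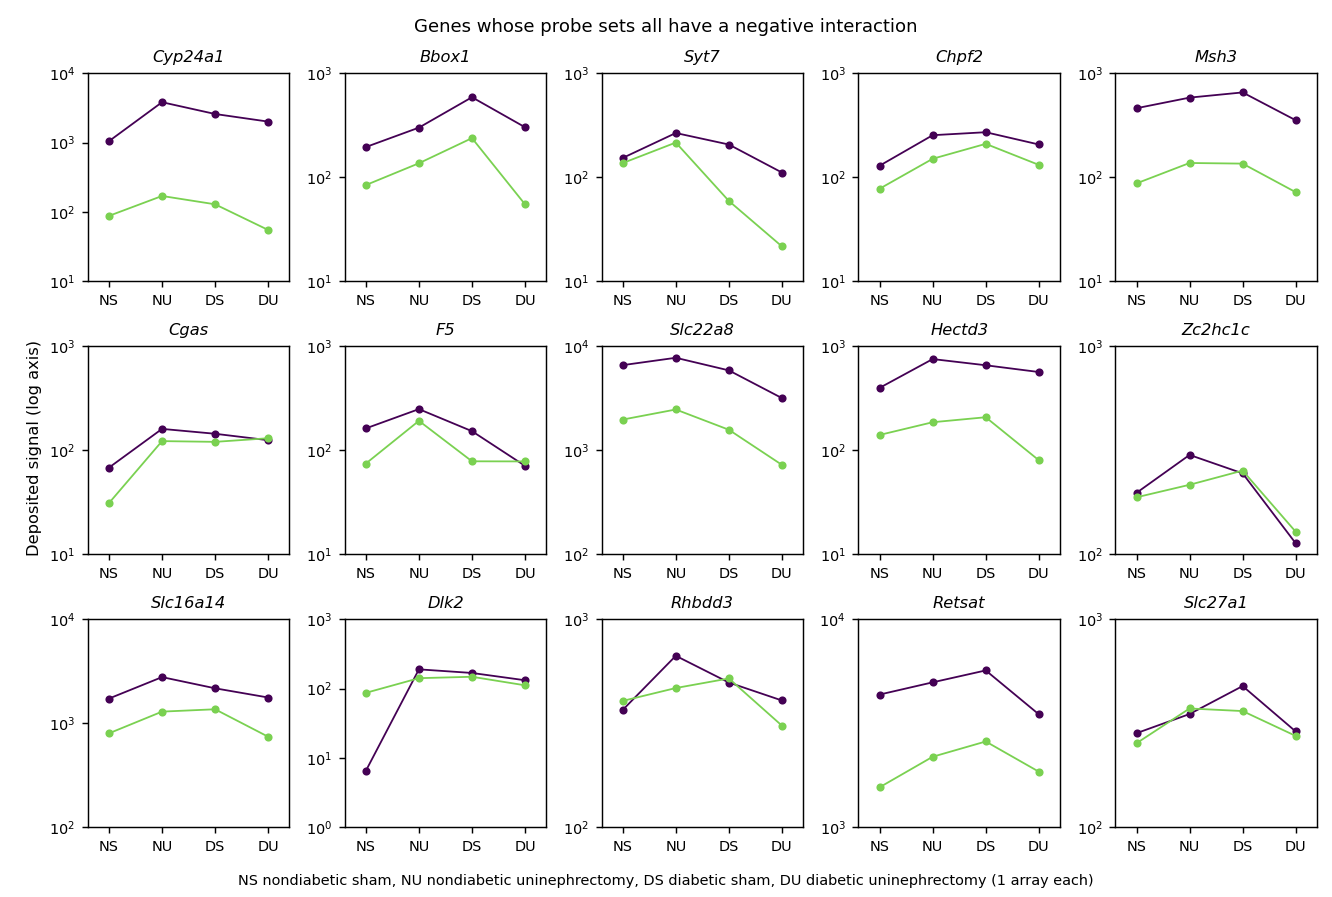
Deposited signal on a log axis in the 4 groups, 1 array each (NS and NU nondiabetic sham and uninephrectomy, DS and DU diabetic sham and uninephrectomy), for the 15 genes with the largest agreeing negative interaction; each line is a probe set, darker lines being brighter, and each panel has its own axis. Most lines go up from NS to NU and down from DS to DU, and in Cgas and Dlk2 the lowest point is NS.

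Transport and energy genes were negative as groups, with smaller values than the genes above. Of all members 23.4% were negative and 24.3% positive on all probe sets. Among genes with 2 probe sets, the dimmer at 2000 or more, these shares were 46.0% and 21.1%. Slc5a2, Cox6c and Atp5d below belong to this bright class, and the part of signal level in the list counts was not tested. Of 18 proximal tubule members 11 were negative on all probe sets, 1 was positive and 6 had both signs, with a median of -0.29. With arrays centred on all probe sets these counts became 9, 2 and 7 and the median -0.08. Slc13a3, a dicarboxylate transporter, had a mean of -0.74, and Slc5a2, the glucose transporter SGLT2, of -0.72. Slc5a2 read 9531, 10324, 10089.5 and 6820.5 on its brighter probe set and 2343, 2269.8, 2539.9 and 1444 on the dimmer one, so diabetic uninephrectomy was the low array. The positive one was Mme, the peptidase neprilysin, at 0.55. The summed signal of the 35 proximal tubule markers was 490609, 534987, 494855 and 402622 in the 4 groups.

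In the loop of Henle and distal tubule 7 of 11 members were negative on all probe sets, 0 were positive and 4 had both signs, with a median of -0.46. With arrays centred on all probe sets these counts became 4, 2 and 5 and the median -0.26. Calb1, the calcium binding protein calbindin, was negative on 4 probe sets with a mean of -0.77. Its brightest probe set read 16021, 23604, 20828 and 20374, where nondiabetic sham was the low array. Klk1, tissue kallikrein, was negative on 4 probe sets with a mean of -0.55, and Umod, uromodulin, a protein of urine, had a mean of -0.47.

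Oxidative phosphorylation had the largest share of members of 1 sign among the lists: 21 of 24 members were negative on all probe sets, 0 were positive and 3 had both signs, with a median of -0.33. Quantile normalization left 12 negative, 3 positive and 9 of both signs, and centring on all probe sets 13, 4 and 7, both with a median of -0.12. Cox6c, a subunit of cytochrome c oxidase, read 31267, 34326, 33707 and 28845 on the brighter probe set and 9109.9, 15191, 14491 and 11929.7 on the dimmer one, with interactions of -0.36 and -1.02. Atp5d, of ATP synthase, read 20104, 23903, 24467 and 20489.6 on its brighter probe set and 7210.3, 8336, 9777 and 7449.9 on the dimmer one, with interactions of -0.51 and -0.60, and was high in nondiabetic uninephrectomy and diabetic sham.

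Fatty acid oxidation genes and targets of the receptor PPARA had 8 of 13 members negative on all probe sets, 0 positive and 5 of both signs, with a median of -0.35 that was nearest 0, at -0.14, when arrays were centred on all probe sets. Fabp1, a fatty acid binding protein, had a mean of -1.06, Acaa2, a thiolase of beta oxidation, of -0.77, and Slc25a20, the mitochondrial carnitine carrier, of -0.75. Fabp1 read 166, 392, 311 and 384 on the brighter probe set and 195, 445, 242 and 210.0 on the dimmer one, and uninephrectomy was well above sham in nondiabetic mice, while the diabetic steps were smaller and of opposite sign on the probe sets. Acaa2 gave -0.65, -1.19 and -0.46 on 3 probe sets.

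Lipid and sterol synthesis had 10 of 15 members positive on all probe sets, 2 negative and 3 of both signs, and a median of 0.19. A signal limit of 50 left 7 of 16 positive, 1 negative and 8 of both signs, with a median of 0.06, and centring on the members 6, 3 and 6, with a median of 0.11. Idi1, of sterol synthesis, had the highest mean, 0.65. The summed signal of 13 adipocyte markers, 9 of them at the limit, was 66777, 48694, 59849 and 43491, lower after uninephrectomy in both genotypes. The sum does not stand for each gene. Of the 5 adipocyte members 3 were positive on all probe sets, 0 were negative and 2 had both signs, with a median of 0.32. In diabetic mice the mean step after uninephrectomy was 0.13 in Fabp4, 0.10 in Scd1 and -0.10 in Cd36, the 3 members with the largest mean interaction. Glucose metabolism had 2 positive and 5 negative members and 7 of both signs of 14, with a median of -0.01 that turned to 0.20 when arrays were centred on all probe sets and to 0.03 after quantile normalization. Within it Slc2a1, the glucose transporter GLUT1, was positive on 3 probe sets with a mean of 0.58, and Pck1, of gluconeogenesis, was negative on 3 with -0.53.

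**Figure D4:**
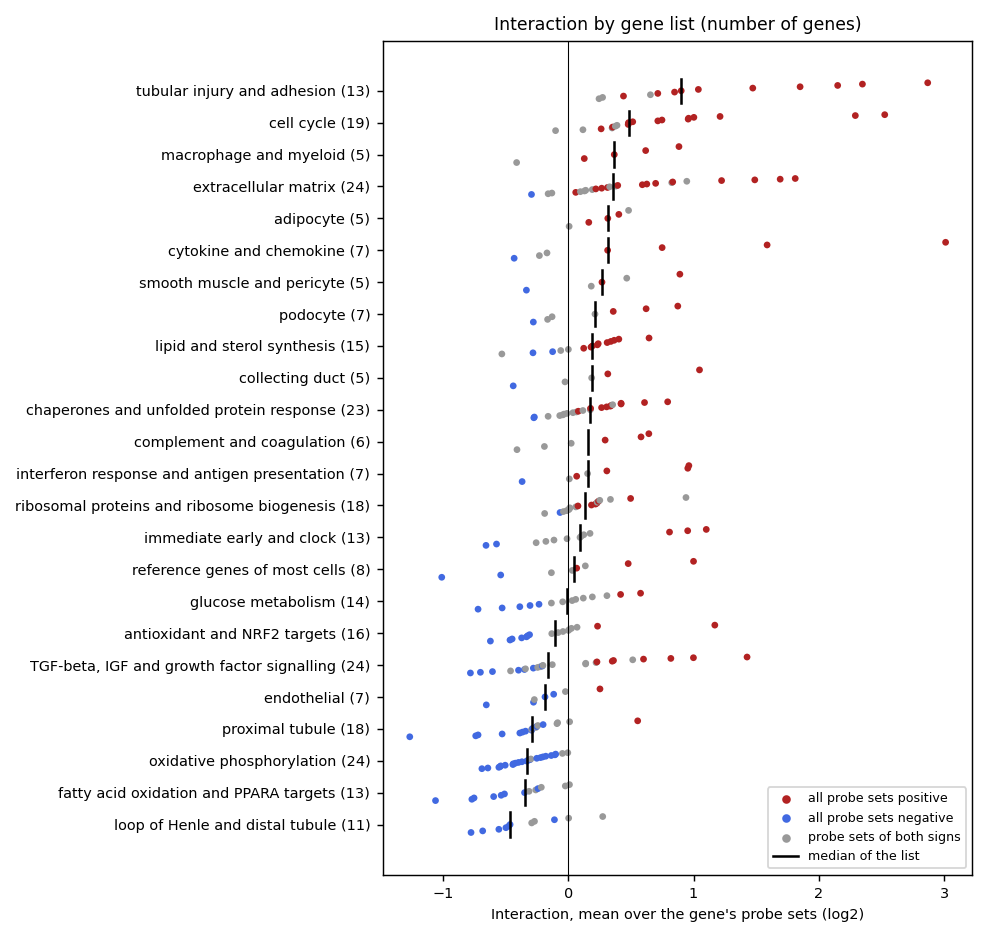
Each point is a member gene, placed by the mean interaction over its probe sets (log2, x axis) and coloured by whether all its probe sets share a sign, for the 24 gene lists with at least 5 members; black bars are list medians. Injury and cell cycle genes lie mostly to the right and loop, fatty acid oxidation and oxidative phosphorylation genes mostly to the left; the medians of the glucose, antioxidant, TGF-beta and endothelial lists change sign when arrays are centred on all probe sets.

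Of 24 growth factor members 7 were positive on all probe sets, 7 negative and 10 of both signs, close to the 24.3%, 23.4% and 52.3% of all members, with a median of -0.16 that became 0.04 when arrays were centred on all probe sets. Fst, follistatin, which binds activins, had the highest mean, 1.43, and it read 807, 412, 820.3 and 1558 on the brighter probe set and 305, 269.9, 347 and 652 on the dimmer one. Igf1, a growth factor tied to kidney growth, was positive on 4 probe sets, with interactions of 0.96, 1.15, 1.39 and 0.50. On each of them diabetic uninephrectomy was above diabetic sham, by 0.42, 0.92, 0.48 and 0.59 in the same order. The nondiabetic differences were -0.55, -0.23, -0.91 and 0.09. The Igf1 probe sets with interactions of 0.96 and 1.39 were highest in nondiabetic sham, at 540.2 and 210.1. On these the nondiabetic fall was the larger step. The other Igf1 probe sets were highest in diabetic uninephrectomy, and the diabetic rise was the larger step. Of the binding proteins of IGF1, Igfbp3, Igfbp4 and Igfbp5 were negative on all probe sets, with means of -0.70, -0.78 and -0.60, while the related Igfbp7 had probe sets of both signs and a mean of -0.13. Tgfb2, a transforming growth factor, was positive on 3 probe sets with a mean of 0.82.

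Chaperone genes had 10 positive, 2 negative and 11 members of both signs of 23, with a median of 0.18 that became 0.07 at a signal limit of 200. Asns, asparagine synthetase, had the highest mean, 0.79, made of 0.25 and 1.33. Antioxidant genes had 2 positive, 7 negative and 7 of both signs of 16, with a median of -0.11 that became 0.10 when centred on all probe sets. Sod3, the secreted superoxide dismutase, had a mean of 1.17, and its nondiabetic uninephrectomy signal was the lowest on both probe sets: 718, 488, 596 and 605 on its brighter probe set and 248, 85, 169.9 and 248 on the dimmer one. Mt1, a metallothionein, was at -0.62 and Fth1, ferritin heavy chain, at -0.46.

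Markers of smooth muscle and pericytes, podocytes, endothelium and the collecting duct had no common sign. Smooth muscle and pericyte genes had 2 positive, 1 negative and 2 of both signs of 5, with a median of 0.27. Podocyte genes had 3 positive, 1 negative and 3 of both signs of 7, with a median of 0.21. Cd2ap, of the slit diaphragm, led them at 0.87 and Npnt, nephronectin of the glomerular basement membrane, was positive on 5 probe sets with 0.62. The negative member was Vegfa, at -0.28, and those of both signs were Podxl, Tcf21 and Clic5, with means of -0.16, -0.13 and 0.21. Endothelial genes had 1 positive, 4 negative and 2 of both signs of 7, with a median of -0.18 that became 0.02 when centred on all probe sets. Collecting duct genes had 2 positive, 1 negative and 2 of both signs of 5, with a median of 0.19. The negative member was Slc4a1, at -0.44. Aqp4, a water channel, was positive on 3 probe sets with a mean of 1.05, and its brightest read 5296, 2305, 2221 and 2596. Nondiabetic sham was the high array there, unlike in the injury genes. Among clock and immediate early genes 8 of 13 had both signs, and Nr1d2, a clock repressor, was at 1.10 with nondiabetic sham as the high array too.

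Genes used as references in many assays were not free of large values. Of 8 members 3 were positive on all probe sets, 2 negative and 3 of both signs, with a median of 0.05 that became -0.03 when arrays were centred on the members. Tfrc, the transferrin receptor, had a mean of 1.0 from 0.53 on its bright and 1.47 on its dim probe set. Polr2a, a subunit of RNA polymerase II, had a mean of -1.01 from -0.22 and -1.79, with signals of 928, 999, 1016 and 934 on the brighter probe set and 114, 186, 206 and 74.8 on the dimmer one. In both genes the dim probe set carried most of the value.

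In the 22 genes 2-fold positive on all probe sets, the uninephrectomy minus sham difference was larger in size in diabetic than in nondiabetic mice in 20, and its medians were 1.34 and -0.30. In 13 of the 22 the steps had opposite signs on every probe set. In the 10 negative genes the diabetic step was the larger in 6, with medians of -0.73 in diabetic and 0.62 in nondiabetic mice, and 9 had opposite steps on every probe set. At the 1.5-fold limit the diabetic step was the larger in 71 of 100 positive and 41 of 65 negative genes, and the steps were opposite on every probe set in 65 and 50. Whether the directions differ in this was not tested. The genes were chosen by a large difference between the steps, which itself favours steps of opposite sign. These counts therefore partly follow from that choice, and the shares over all members were not counted.

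The array that stood apart was taken as the one without which the other 3 lay closest together. It was diabetic uninephrectomy in 38 of the 46 probe sets of the 22 positive genes and in 11 of the 20 of the negative genes, where nondiabetic sham stood apart in 6. These genes were chosen by the interaction, and some, such as Col1a1, Mcm6 and Ankrd1, reached the signal limit only through diabetic uninephrectomy. The counts partly follow from that choice and are no separate result. Over all 13691 member probe sets the shares were 24.6% for nondiabetic sham, 21.8% for nondiabetic uninephrectomy, 23.3% for diabetic sham and 30.3% for diabetic uninephrectomy. Among probe sets that were 2-fold positive, diabetic uninephrectomy stood apart in 113 of 221, 51.1%, where the gene's probe sets agreed and in 26 of 168, 15.5%, where they did not. For 2-fold negative probe sets the shares were 77 of 169, 45.6%, and 62 of 207, 29.95%. The agreeing positive probe sets also had the higher median signal, 289.8 against 180.7.

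Genes with probe sets of both signs had a median gap of 0.71 between their highest and lowest probe set. The value farthest from 0 lay on the brightest probe set in 777 of the 2677, 29.0%. Where the gap was 1 or more (779 genes) this was 17.2%, and where it was 2 or more (85 genes) 14.1%. Values past 2-fold in both directions occurred in 18 genes.

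Telo2, which stabilises kinases of the PI3K-like family, had the widest gap. Its probe sets read 203, 198, 246 and 194 on the brightest, 152, 280.5, 226 and 178 on the next and 198, 33.3, 31.7 and 166 on the dimmest, with interactions of -0.27, -1.09 and 3.63. The dimmest was near the offset of 26.4 in nondiabetic uninephrectomy and diabetic sham, and the brighter ones were not. Rpl37a, a ribosomal protein gene, read 21599, 22513, 23991 and 21694 on its brightest, 16816, 17413, 19349 and 17297 on the next and 496, 206, 90.7 and 464 on the dim one. The interaction was -0.20 and -0.21 on the bright and 3.24 on the dim probe set, so the mean of 0.94 of this gene comes from its dim probe set.

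Low signals in a single array recurred in these genes. In diabetic sham the dimmest probe set of Ddah1, which encodes the enzyme that degrades the nitric oxide synthase inhibitor ADMA, was at 31.0, that of Klhdc3, of a ubiquitin ligase, at 32.3, and that of Prkar1b, a regulatory subunit of protein kinase A, at 30.8. The fourth probe set of Slc35a2, the Golgi transporter of UDP-galactose, was at 17.0 there. These gave 2.33, 1.79, 2.94 and 2.51. The other 4 probe sets of Ddah1 were negative, between -0.53 and -0.29, and its brightest read 5908, 7837, 6285 and 5764, highest in nondiabetic uninephrectomy. Thra, a thyroid hormone receptor, had a probe set at 32.4 in nondiabetic uninephrectomy that gave 2.46 against -0.62 and -0.41 on its others. In Supt20, of the SAGA complex, 1 of 6 probe sets was at 37.6 in diabetic uninephrectomy and gave -2.91.

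In 3 of the 12 genes with the widest gaps the largest value was on the brightest probe set. Laptm5, a lysosomal membrane gene of blood cells, read 125, 394, 253 and 134 on its brightest, with interactions of -2.28, and 0.51 and 0.54 on the others, where diabetic uninephrectomy was highest. The other macrophage members had the sign of these dimmer probe sets. Dcdc2a, a doublecortin domain gene, read 165, 80.8, 132 and 536 on its brighter probe set and 121, 155, 159 and 180.0 on the dimmer one, with interactions of 2.66 and -0.15, and was the only gene of both signs among 60 members with a mean of at least 1. Map1a, a microtubule protein, read 38.8, 221, 153 and 81.8 on the brighter probe set and 125, 127, 85.9 and 98.3 on the dimmer one, with interactions of -2.65 and 0.13. Of 40 members with a mean of -1 or less, Map1a and 2 more had both signs, Fbxo42 and Usp16, which are named only to complete the count.

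Timp2, an inhibitor of matrix metalloproteinases, had 5 probe sets. The brightest 3 read 1523, 1363, 1858 and 1814, then 636, 539, 650.2 and 843, then 585, 452, 665 and 832, with interactions of 0.12, 0.59 and 0.67. These share a sign, and the dim ones gave 2.08 and -1.55, so the gene counts as one of both signs through its dimmest probe set.

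**Figure D5:**
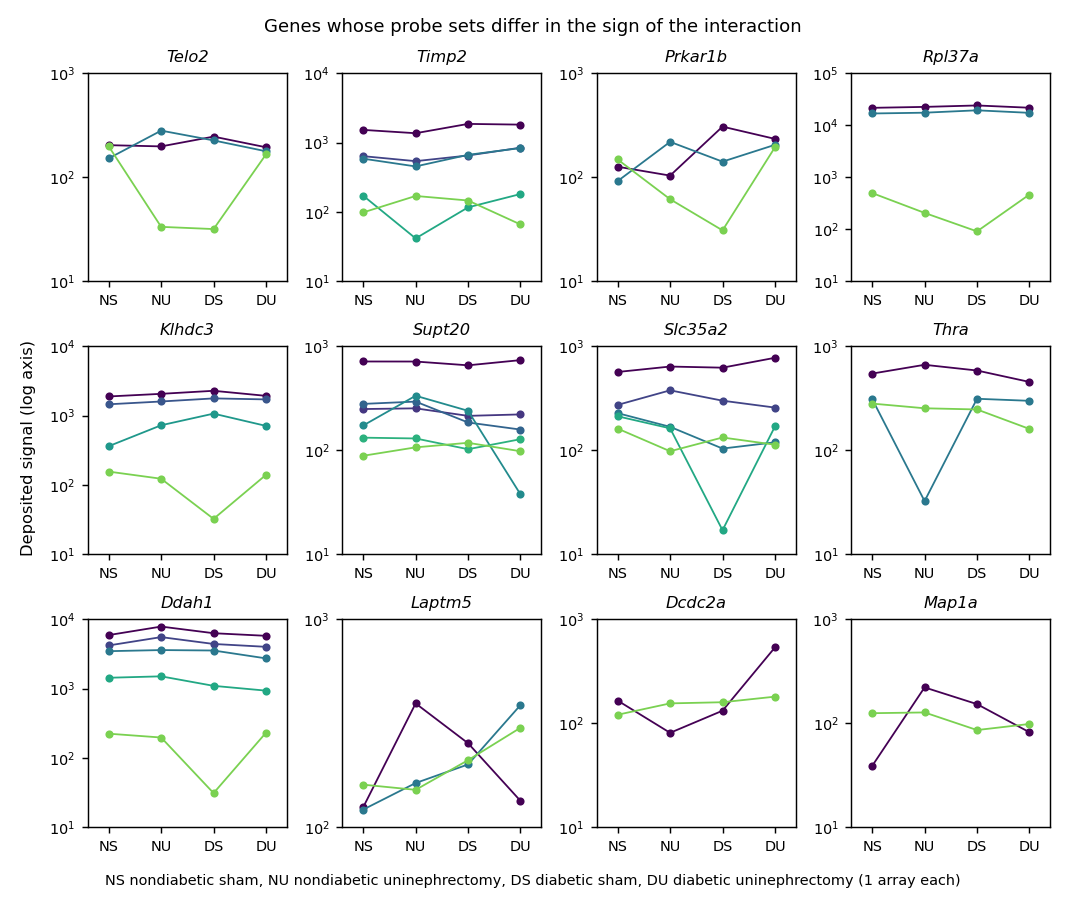
Deposited signal on a log axis in the 4 groups, 1 array each (NS and NU nondiabetic sham and uninephrectomy, DS and DU diabetic sham and uninephrectomy), for the 12 genes with the widest gap between probe sets of opposite sign; each line is a probe set, darker lines being brighter, and each panel has its own axis. Bright lines are nearly flat in Rpl37a and Ddah1, while a dim line drops in 1 or 2 arrays.

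The genes with most probe sets at the limit were both of mixed sign. Rbm39, a splicing factor, had 12, between -0.22 and 0.99, and Ttc14 had 9, between -0.05 and 0.69. In Ttc14 8 of the 9 were positive. At the signal limit itself, the dimmer probe set of Ears2, a mitochondrial tRNA synthetase, had a mean of 100.0 and the gene was just inside, with interactions of -0.90 and -0.75. Aspn, asporin, was just outside, with a mean of 99.98 on its dimmer probe set and interactions of 0.03 and 0.17.

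The limit on signal also bears on the count of large values. The SD of the interaction over member probe sets was 0.70 at a mean signal of 100 to 200 and 0.35 at 2000 or more, and 13.6% and 1.29% of probe sets were past 2-fold in these classes. Genes with only 1 probe set at the limit had an SD of 0.60 and a median of -0.04, and 3.75% of them were 2-fold positive and 4.45% 2-fold negative, against 2.84% and 2.75% of member probe sets. By kind, probe sets ending in _x_at had an SD of 0.55 and those ending in _at 0.52. Agreement was 48.9% in the 2173 genes with only _at probe sets and 45.5% in the 1908 genes with any _s_at or _x_at probe set.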

How the data were processed

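Total RNA of kidney, pooled from 4 mice in each group, was labelled with biotin from 100 ng with the 3′ IVT Express Kit, per the labels' protocols. The authors deposited 1 linear intensity value for each of 45101 probe sets on each array. The software, the background correction and the summary of probes were not given in the sources used here. Without the highest and lowest 2% the mean intensity was 500.003 on each array, so the deposited values carry a common scale. No sequencing depth exists for arrays, and their number, 1 per group, limits the precision.

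GEO's platform annotation paired 34945 of the 45037 non-control probe sets with a single symbol and 932 with several, leaving 9160 unnamed here; only those with a single symbol were used. The RefSeq table of assembly GRCm38.p6 held 34741 of the 34945 and changed 0 symbols. Each intensity was transformed to log2(value + 26.4), 26.4 being the 20th percentile of all values, which makes differences of dim probe sets smaller than their signal ratios. No further normalization was applied, and the interaction was computed for each probe set. With 4 coefficients on 4 arrays nothing is left for a test.

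The members and the gene lists were chosen with earlier results of these data known. Named genes are the 15 agreeing genes in each direction with the largest probe set nearest 0, the 12 genes of both signs with the widest gap, up to 3 genes of each list by the size of their mean, the 2 genes with the most probe sets and the genes next to the signal limit; further genes are given as list members or to complete a count. Alternatives were offsets of 1 and of 72.5 (the 40th percentile), centring of arrays on all or on the members' probe sets, quantile normalization, signal limits of 50 and 200, leaving out _s_at and _x_at probe sets, and a 1.5-fold limit. Computations used Python 3.11.15 with numpy 2.4.6 and pandas 2.3.3 and were tested on simulated data, and figures were drawn with matplotlib 3.10.9.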

Additional observations from a re-analysis of the deposited data

Results flagged for a closer look

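In 22 of the 30 genes named by rank the uninephrectomy minus sham difference had opposite signs in diabetic and nondiabetic mice on every probe set. In 5 of them both differences also reached 1.5-fold as means over the gene's probe sets, on the log2 scale. Havcr1 was at 2.10 in diabetic and -0.76 in nondiabetic mice, and Tnfrsf12a at 1.42 and -0.73. The reverse order held for Cyp24a1, at -0.65 in diabetic and 1.31 in nondiabetic mice, for Syt7, at -0.80 and 0.64, and for Hectd3, at -0.67 and 0.61. No Hectd3 probe set reached 1.5-fold in both genotypes: the brighter had -0.21 and 0.88, the dimmer -1.14 and 0.35. The bright Cyp24a1 probe set had only -0.36 in diabetic mice. The dimmer Syt7 probe set was at 21.6 in diabetic uninephrectomy, below the offset. In nondiabetic mice the dimmer Havcr1 probe set was at 25.6 after sham surgery and 9.3 after uninephrectomy, both also below the offset. Its nondiabetic difference was -0.54, against -0.98 on the brighter Havcr1 probe set. These genes were ranked by the interaction itself, each group is 1 array, and the difference between the genotypes was not tested.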

How the results depend on the processing

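Scaling of the arrays set the balance of signs. Centring on all probe sets gave 2311 positive and 489 negative genes, 48 and 3 of them 2-fold on every probe set, and a median of 0.22 over member probe sets. Centring on the members gave a median of -0.068. An offset at the 40th percentile left 4 genes 2-fold negative, with r = 0.31 between the brightest and second probe set. A signal limit of 50 gave 34 and 31 genes 2-fold on every probe set, a median of -0.010 and r = 0.20, and a limit of 200 gave 12 and 1, a median of 0.032 and r = 0.38. Without _s_at and _x_at probe sets 14 genes were 2-fold positive and r was 0.25. Of the 22 positive genes of the main setting 13 were still members there, and Socs3 and Mcm3 were not. At 1.5-fold, 100 and 65 genes passed. A stricter or looser limit on signal changes which genes are members, and the cause of the other shifts was not tested. Of the 30 genes named by rank all that were members still agreed in sign under each of these settings, except 1 of 30 at a signal limit of 50. Only 14 of the 30 were members at a limit of 200. Of 779 values of single named genes under an alternative, 661 moved by less than the spread between the gene's probe sets and 118 moved by more. No paired analysis was possible because each group holds 1 array, and no replicate could be left out.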

Other observations

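The controls that the array carries for degraded or short RNA were not even across the groups. The ratio of 3′ to 5′ signal of beta-actin was 2.78 in nondiabetic sham, 3.49 in nondiabetic uninephrectomy, 3.72 in diabetic sham and 3.38 in diabetic uninephrectomy mice, and the 3′ and 5′ probe sets gave interactions of 0.11 and 0.58. For Gapdh the ratios were 0.90, 0.99, 1.01 and 0.91, with interactions of -0.35 and -0.05. The dap spike-in, which holds no mouse RNA, had ratios of 4.19, 7.37, 6.28 and 6.24, and its 3′ and 5′ probe sets had interactions of opposite sign, -0.42 and 0.40. Of 24 probe sets for labelling spike-ins 20 had a negative and 4 a positive interaction, with a median of -0.33.

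Among genes whose probe sets all lay within 0.25 of 0, 350 agreed and 461 did not. Where the brightest probe set lay within 0.25 of 0, 41.3% of genes agreed, and this share was 51.3% from 0.25 to 0.5, 58.0% from 0.5 to 1 and 67.5% at 1 or more, where 69 genes were positive, 41 negative and 53 of both signs.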
